A study of Homo sapiens with 8 samples.

Results

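Caco-2/15 is a human colon cancer line whose cells stop dividing and acquire features of absorptive intestinal cells once they have filled the dish. The libraries described here come from the derivative named Z1flag, in which 1 allele of H2AFZ, the gene for the histone variant H2A.Z.1, carries a Flag tag placed by CRISPR-Cas9. The members were chosen by their labels, and they are 4 of the 8 libraries of the series: 2 of subconfluent cells and 2 of cells kept for 7 days after confluence. All 4 share the heterozygous H2AFZ-Flag genotype, and no drug or other agent is named. The other 4 libraries come from the Z2flag derivative, which is heterozygous for H2AFV-Flag, in the same 2 states. An untagged line was not analysed here, and the sources used here do not say whether Z1flag is 1 clone. The question was which genes changed between the growing and the confluent state of this line, and how far both postconfluent libraries showed each change.

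H2A.Z is a variant of the core histone H2A that is put into nucleosomes outside replication, and it is known for its place beside active promoters and at enhancers. Its isoforms H2A.Z.1 and H2A.Z.2 come from separate genes, named H2AFZ and H2AFV in the labels and H2AZ1 and H2AZ2 in current gene tables. The SRCAP and p400/TIP60 complexes place the variant, and ANP32E takes it out. In the intestine, dividing crypt cells leave the cell cycle as they move up and switch on brush border enzymes, lipid export and nutrient transport, a passage that confluent Caco-2 cells follow in part.

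The 4 libraries held 19840863 to 25863137 gene counts. Levels are given as CPM, counts relative to the TMM-scaled library size, replicate 1 before replicate 2, with "before" for the subconfluent and "after" for the postconfluent libraries. Epithelial identity genes were present in all 4: VIL1, the villin of the brush border, stood at 501 and 587 CPM before and 646 and 509.6 CPM after confluence, and EPCAM at 439 and 565 CPM before and 691 and 651 CPM after confluence. In a principal component analysis of all 8 libraries the first component, with 71.7% of the variance, separated the states. On the second, with 13.1%, postconfluent Z1flag replicate 1 lay at -73.9, postconfluent Z2flag replicate 1 at 55.7 and the rest between -4.86 and 16.4. Postconfluent replicate 1 also had the highest share of counts on long non-coding genes, at 4.56% against 3.04% in replicate 2 and 1.47% to 1.64% before confluence. Reads outside any feature made up 32.0% and 31.4% in subconfluent and postconfluent replicate 1 and 24.5% and 20.6% in the replicates 2. The part of these values in the results below was not tested. Of the 164 genes named by rule, 34 overlap a gene on the opposite strand and 9 one on the same strand, and the sources used here name no strand setting for the counting, so such pairs may share reads.

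Confluence changed the level of 7380 of 18240 genes tested (40.5%), with 3890 higher (21.3%) and 3490 lower (19.1%) after confluence by edgeR at an adjusted p of 0.05. At least 2-fold changes were more often upward, with 3212 genes higher (17.6%) and 2098 lower (11.5%). With upper-quartile scaling the median change over all genes was 0.26 on the log2 scale, in place of 0.04, and 67.1% of the calls were higher, against 52.7% with TMM scaling, so the balance of directions depends on the scaling. Over the 4 libraries the 2 states did not overlap for 68.7% of all genes tested, called or not. Among the 7380 called genes this held for 7375, so the remark adds little where it is made for called genes below. Long non-coding genes were called more often upward, with 687 of 3033 higher and 191 lower, whereas 2843 of 13184 protein-coding genes were higher and 3105 lower. Fewer genes were called in each direction when either subconfluent Z1flag library was left out. To a smaller extent this also held when either subconfluent Z2flag library was left out. The part of the shared estimate of spread in this was not tested. In a fit of the Z1flag libraries alone 2177 genes were lower. The shares of 21.3% higher and 19.1% lower are the background for each gene list below. A gene near 0 before confluence could pass the filter through its postconfluent libraries alone. Its direction was then fixed by the filter, and such genes are counted among the rises. For these lists, each count that moved by over 1.5 times under another setting is given with its new value, where "without either library" means that each was left out on its own and the CPM filter keeps genes with at least 5 CPM in 2 libraries. With 1 library left out, the lone remaining library of its group is assumed to vary like the other groups. The tests rest on 2 libraries per state, titled Exp1 and Exp2, and no label says whether these were separate cultures. The p-values therefore measure only the spread between libraries of a group, estimated over all 8 libraries.

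**Figure D1:**
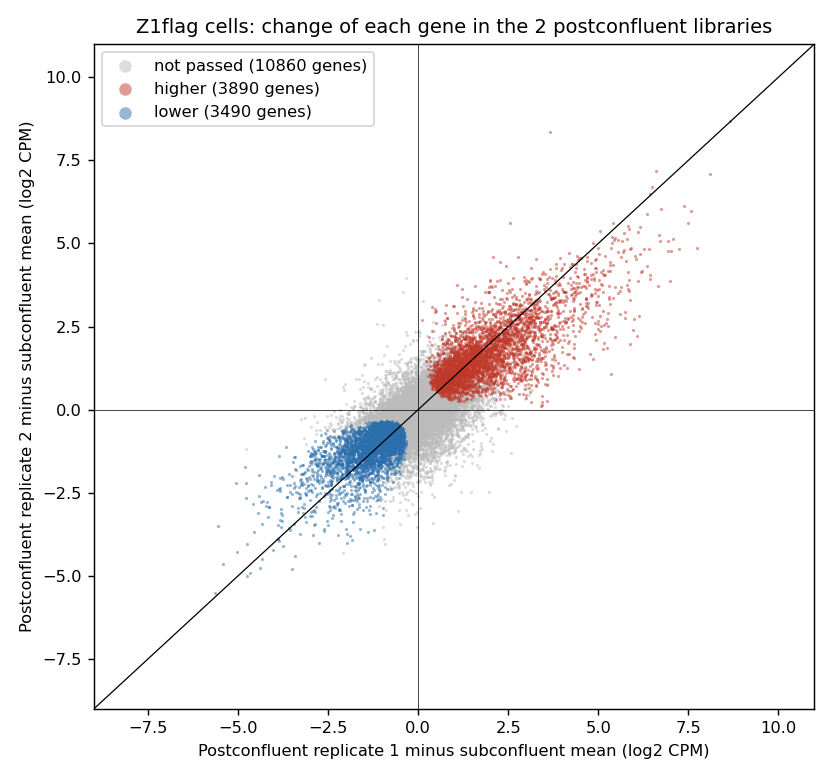
Each point is 1 of the 18240 genes tested, placed by its log2 CPM in postconfluent replicate 1 (x axis) and replicate 2 (y axis) minus the mean of the 2 subconfluent Z1flag libraries. Genes called higher by edgeR (3890) are red and those called lower (3490) blue; points off the diagonal line differ between the 2 postconfluent libraries.

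The gene whose product carries the tag fell after confluence. H2AZ1 (chr4:99948086-99950388, minus strand, GRCh38) stood at 292 and 341 CPM before and 108 and 197 CPM after confluence (log2 fold change -1.05, SE 0.27, edgeR adjusted p = 0.0108). H2AZ2 (chr7:44826791-44848083, minus strand), which was not tagged in this line, stood at 84.8 and 97.1 CPM before and 42.8 and 56.95 CPM after confluence (log2 fold change -0.87, SE 0.20, edgeR adjusted p = 0.00664). For both genes the states did not overlap, and postconfluent replicate 1 was the lowest library. Neither call held without subconfluent replicate 2, where the edgeR adjusted p was 0.0759 for H2AZ1 and 0.0602 for H2AZ2. The counts do not separate tagged from untagged transcripts.

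Genes of the H2A.Z machinery fell more often than they rose, with 3.45% higher and 37.9% lower beside 21.3% and 19.1% of all genes tested. Of 29 genes for the variant, its exchange complexes and its readers, 11 fell and 1 rose, with a median log2 fold change of -0.56. RUVBL1, an ATPase shared by SRCAP and TIP60, stood at 94.8 and 109 CPM before and 23.6 and 32.7 CPM after confluence (log2 fold change -1.86, SE 0.23, edgeR adjusted p = 0.000383). ANP32E, the chaperone that removes H2A.Z, stood at 113 and 120.4 CPM before and 39.2 and 45.3 CPM after confluence (log2 fold change -1.47, SE 0.21, edgeR adjusted p = 0.000718). EPC2, a TIP60 subunit, had a log2 fold change of -1.56. The 1 gene that rose was PWWP2B, which encodes a reader of H2A.Z chromatin, at 3.33 and 2.33 CPM before and 7.41 and 9.39 CPM after confluence (log2 fold change 1.57, SE 0.32, edgeR adjusted p = 0.00422). All 4 genes had states that did not overlap. The 1 rise became 2 without postconfluent replicate 1. The 11 falls became 7 without subconfluent replicate 1, 4 without subconfluent replicate 2 and 17 without postconfluent replicate 2.

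The genes with the largest rises were nearly silent in growing cells, and a ranking by fold change favours such genes. LGI4, a secreted protein best known from peripheral nerve, had no count in either subconfluent library and stood at 30.9 and 31.5 CPM after confluence, at least 502-fold higher against a floor of 3 counts over the 2 libraries (edgeR adjusted p = 2.70e-05). FXYD3, a regulator of the sodium pump, stood at 0.0901 and 0.114 CPM before and 48.9 and 24.5 CPM after confluence (log2 fold change 8.41, SE 0.56, edgeR adjusted p = 5.82e-05). PNCK, a calcium/calmodulin-dependent kinase, stood at 0.0451 and 0.0382 CPM before and 10.7 and 12.1 CPM after confluence, 273-fold (95% interval 75.2 to 2261) higher, where the interval covers counting error only. These 3 genes were high in both postconfluent libraries, LGI4 and PNCK to a like degree and FXYD3 more in replicate 1. These and the genes that follow are the 10 that the naming rule picked. MYO7B, the motor of the intermicrovillar tip-link complex, stood at 0.1802 and 0.343 CPM before and 58.9 and 16.1 CPM after confluence (log2 fold change 7.11, SE 0.76, edgeR adjusted p = 0.000237). SLC17A4, a sodium-phosphate family transporter, stood at 0.135 and 0 CPM before and 16.5 and 3.42 CPM after confluence, 176-fold (95% interval 59.8 to 855) higher. SLC51A, part of the exporter of bile acids at the basolateral membrane, stood at 0.0901 and 0.114 CPM before and 14.6 and 10.6 CPM after confluence (log2 fold change 6.87, SE 0.52, edgeR adjusted p = 6.82e-05). TMPRSS6, the protease that restrains hepcidin, had a log2 fold change of 7.03, MS4A10 one of 6.71 and GNRH2, a gonadotropin-releasing hormone gene, one of 7.75. After confluence TMPRSS6 stood at 109 and 36.0 CPM, MS4A10 at 27.8 and 7.55 CPM and GNRH2 at 15.0 and 22.8 CPM. The tenth gene was HSPA6, described with the chaperones below. PNCK, SLC51A and LGI4 overlap genes on the opposite strand (SLC6A8, PCYT1A and FXYD1).

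In all, 54 genes had at most 3 counts over the 2 subconfluent libraries and at least 1 CPM in each postconfluent library, of which 42 were protein-coding; their choice fixes the direction. They include, named here after their values were seen, PCK1, the first committed enzyme of gluconeogenesis (0.0901 and 0 CPM before and 12.1 and 7.35 CPM after confluence), and GPA33, an intestinal surface antigen (0 and 0 CPM before and 3.03 and 1.33 CPM after confluence). The pyruvate kinase gene PKLR (0 and 0.0763 CPM before and 6.13 and 1.28 CPM after confluence) was also among them, higher in postconfluent replicate 1. Only 5 genes went the other way, among them the potassium channel gene KCNJ13 (1.49 and 1.603 CPM before and 0.0756 and 0 CPM after confluence).

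The 10 largest falls that the naming rule picked include 3 genes of actin and myosin. MYL7, a myosin light chain of heart atrium, stood at 25.999 and 23.4 CPM before and 0.416 and 0.459 CPM after confluence (log2 fold change -5.81, SE 0.50, edgeR adjusted p = 0.000116). TAGLN, or transgelin, an actin-binding protein that marks contractile cells, stood at 1492 and 1113 CPM before and 30.1 and 51.4 CPM after confluence (log2 fold change -5.000, SE 0.83, edgeR adjusted p = 0.00151). MYBPH, a myosin-binding protein, stood at 28.7 and 43.7 CPM before and 1.02 and 1.74 CPM after confluence (log2 fold change -4.74, SE 0.39, edgeR adjusted p = 9.09e-05). In these 3 genes both postconfluent libraries lay far below both subconfluent ones. CDC42EP3, an effector of the CDC42 GTPase that organises actin, had a log2 fold change of -3.87. The sodium channel gene SCN9A stood at 23.5 and 12.7 CPM before and 0.567 and 0.459 CPM after confluence (log2 fold change -5.11, SE 0.53, edgeR adjusted p = 0.000218). OLR1, a receptor for oxidised lipoprotein, stood at 329 and 155 CPM before and 10.8 and 8.22 CPM after confluence (log2 fold change -4.67, SE 0.69, edgeR adjusted p = 0.000857). The other 4 were SOCS2, a brake on cytokine signalling (-4.26 log2), SH3TC2 (-4.19), the heparan sulfate enzyme gene NDST4 (-3.99) and the U6 small nuclear RNA gene RNU6-2 (-3.95), whose many near-identical copies make its count uncertain. After confluence SOCS2 stood at 1.59 and 6.74 CPM and SH3TC2 at 2.27 and 1.99 CPM. NDST4 then stood at 1.21 and 1.12 CPM and RNU6-2 at 4.73 and 3.67 CPM. With no filter on low counts the edgeR adjusted p was 0.0692 for TAGLN and 0.0569 for SOCS2. TAGLN overlaps PCSK7 and OLR1 overlaps TMEM52B on the opposite strand.

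**Figure D2:**
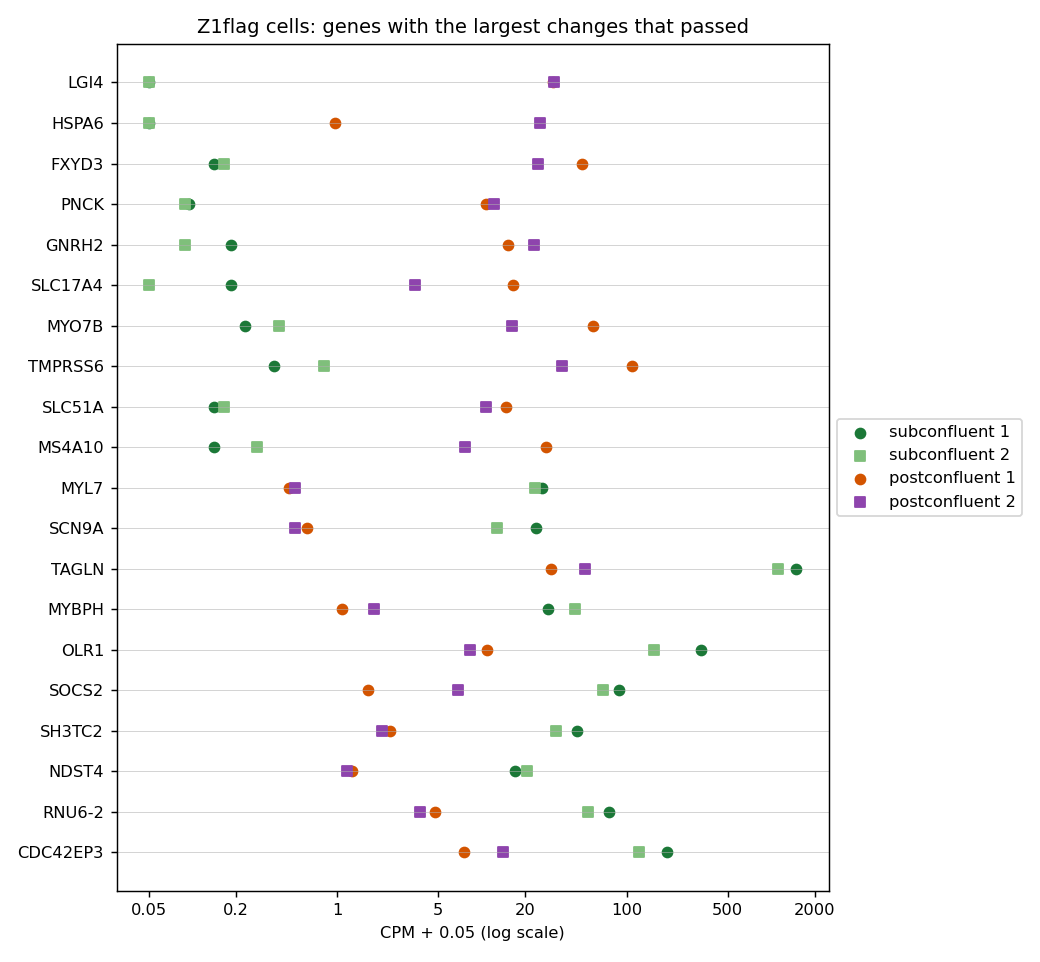
CPM (plus 0.05, log scale) of the 10 genes with the largest rises and the 10 with the largest falls that passed the test, 1 point per Z1flag library. The rule that picked these genes required that both postconfluent libraries lie on one side of both subconfluent ones. HSPA6 is the gene whose postconfluent libraries are farthest apart, at 0.908 and 25.3 CPM.

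Genes of DNA synthesis fell almost throughout. Of 59 DNA replication genes 52 fell and none rose, with a median log2 fold change of -1.57, beside 19.1% lower and a median of 0.04 over all genes tested. BRCA2, which protects broken and stalled forks, stood at 203 and 136 CPM before and 37.02 and 28.99 CPM after confluence (log2 fold change -2.36, SE 0.27, edgeR adjusted p = 0.000309). BLM, a helicase of homologous recombination, stood at 61.5 and 59.01 CPM before and 18.9 and 21.3 CPM after confluence (log2 fold change -1.58, SE 0.18, edgeR adjusted p = 0.00031). CCNE2, a cyclin of the G1 to S transition, stood at 26.4 and 25.6 CPM before and 6.39 and 6.17 CPM after confluence (log2 fold change -2.05, SE 0.23, edgeR adjusted p = 0.000266). Each of these 3 genes was low in both postconfluent libraries to a like degree. The list as a whole was lower in replicate 1, with a median of -1.96 against -1.17 in replicate 2 relative to the subconfluent mean, and 28 of the 59 genes were at least 2-fold lower in replicate 1 than in replicate 2. In bulk RNA, fewer dividing cells and less RNA per cell cannot be told apart.

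E2F factors drive many replication genes from sites close to the transcription start, so the promoters were searched for the E2F letters TTTCGCGC and TTTGGCGC and their reverse complements. In RefSeq promoters (GRCh38.p14, 250 bases before to 50 after the start), 13 of 49 matched replication genes held a match (26.5%), against 1.18% of 27305 promoters, 3.51% of those of genes that fell and 1.00% of those of genes that rose. Among the 11689 promoters of genes tested the share was 1.97%. The windows below, 5′ to 3′ in the direction of the gene with the match in capitals, show 4 of the 13, chosen for the match after their values were seen.
MCM6: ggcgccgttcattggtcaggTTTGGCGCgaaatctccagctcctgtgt
E2F1: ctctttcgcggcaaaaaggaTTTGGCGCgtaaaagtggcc
POLA1: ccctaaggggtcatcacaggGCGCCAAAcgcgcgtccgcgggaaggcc
POLE: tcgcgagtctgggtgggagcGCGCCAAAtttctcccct
The MCM6 window is chr2:135876506-135876553 on the minus strand. Here TTTGGCGC runs into the reverse complement of TTTCGCGC, so these 2 matches overlap, and the MCM6 promoter holds another such pair upstream. The E2F1 window is chr20:33686386-33686425 on the minus strand, that of POLA1 chrX:24693761-24693808 on the plus strand and that of POLE chr12:132687343-132687380 on the minus strand. MCM6, a subunit of the replicative helicase, stood at 333 and 325 CPM before and 87.1 and 146 CPM after confluence (log2 fold change -1.49, SE 0.24, edgeR adjusted p = 0.001404). E2F1, itself an E2F factor, stood at 101 and 106 CPM before and 24.8 and 64.2 CPM after confluence (log2 fold change -1.22, SE 0.35, edgeR adjusted p = 0.0197). POLA1, the catalytic subunit of the priming polymerase, stood at 96.3 and 73.5 CPM before and 31.6 and 25.7 CPM after confluence (log2 fold change -1.57, SE 0.22, edgeR adjusted p = 0.000692), and POLE, that of the leading-strand polymerase, at 149 and 137 CPM before and 46.9 and 83.9 CPM after confluence (log2 fold change -1.13, SE 0.26, edgeR adjusted p = 0.00776). All 4 genes were lower in both postconfluent libraries, and POLA1 was the one without a visibly lower replicate 1. A match describes the letters and not a bound site.

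Mitotic and histone genes also fell, and none of the genes tested rose. Of 54 mitosis genes 32 fell and none rose (median log2 fold change -0.96), with a median of -1.36 in replicate 1 and -0.56 in replicate 2. NCAPG, a condensin subunit, stood at 168 and 169 CPM before and 31.5 and 43.5 CPM after confluence (log2 fold change -2.17, SE 0.23, edgeR adjusted p = 0.000219). The kinetochore genes CENPK and SPC25 had log2 fold changes of -1.87 and -1.78. The states of these 3 genes did not overlap. Against no rise, the count was 5 without postconfluent replicate 1. The 32 falls became 51 without postconfluent replicate 2. The replication-dependent histone genes, which are transcribed in S phase, are held in clusters of near-identical copies, so counts of single members are uncertain. Of 53 such genes 45 passed the filter, 25 fell and none rose (median -1.17), and 12 of 48 matched promoters held the E2F letters (25%). Histone medians were -1.98 in replicate 1 and -0.63 in replicate 2, and 40 of the 45 genes were at least 2-fold lower in replicate 1 than in replicate 2. H2AC4 stood at 107 and 100.4 CPM before and 14.7 and 32.8 CPM after confluence (log2 fold change -2.13, SE 0.33, edgeR adjusted p = 0.00107), and H3C12, which overlaps H2AC17, at 286 and 245 CPM before and 32.7 and 88.1 CPM after confluence (log2 fold change -2.14, SE 0.38, edgeR adjusted p = 0.00214). H2AC12 had a log2 fold change of -1.997. Against no rise, the count was 1 without postconfluent replicate 2. The 25 falls became 16 with upper-quartile scaling, 12 in a fit of the Z1flag libraries alone, 6 without subconfluent replicate 1, 14 without postconfluent replicate 1 and 41 without postconfluent replicate 2.

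In a list of cell cycle brakes that also holds the D cyclins CCND1 and CCND2, more genes rose than fell. Of 24 tested genes of CDK inhibition and quiescence 12 rose and 3 fell. CDKN1A, the p21 inhibitor, stood at 4.28 and 4.12 CPM before and 44.1 and 42.6 CPM after confluence (log2 fold change 3.36, SE 0.21, edgeR adjusted p = 5.19e-05). CCNG2, an atypical cyclin of resting cells, stood at 7.25 and 9.08 CPM before and 41.8 and 51.4 CPM after confluence (log2 fold change 2.51, SE 0.22, edgeR adjusted p = 0.000131). FOXO4, a factor of the FOXO family, stood at 5.63 and 7.29 CPM before and 42.6 and 38.3 CPM after confluence (log2 fold change 2.64, SE 0.27, edgeR adjusted p = 0.000216). The levels of these 3 genes agreed closely between the postconfluent libraries. The 3 genes that fell were RBL1, CCND1 and CCND2. CCND2, a D cyclin that promotes G1 progress, stood at 940.4 and 444 CPM before and 46.6 and 71.04 CPM after confluence (log2 fold change -3.56, SE 0.40, edgeR adjusted p = 0.000275). The 12 rises became 5 without subconfluent replicate 1 and 6 without subconfluent replicate 2.

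Stem cell and Wnt target genes mostly fell, with 15 of 27 tested lower and 4 higher. LGR5, the R-spondin receptor that marks crypt base stem cells, stood at 35.9 and 49.4 CPM before and 2.27 and 4.44 CPM after confluence (log2 fold change -3.68, SE 0.35, edgeR adjusted p = 0.000151). TNFRSF19, a Wnt target receptor, stood at 111 and 130.3 CPM before and 34.9 and 44.5 CPM after confluence (log2 fold change -1.61, SE 0.21, edgeR adjusted p = 0.000494). EPHB3, an ephrin receptor that positions crypt cells, rose, at 2.88 and 2.79 CPM before and 13.2 and 22.9 CPM after confluence (log2 fold change 2.67, SE 0.39, edgeR adjusted p = 0.000772). The other genes that rose were LGR4, EPHB4 and SOX4. The states of LGR5, TNFRSF19 and EPHB3 did not overlap. LGR5 overlaps TSPAN8 on the opposite strand. The 4 rises became 2 without either subconfluent library or either Z2flag subconfluent library, with the replicate block or in a fit of the Z1flag libraries alone.

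The 2 gene groups of the ribosome went in opposite directions. Of 52 genes of ribosome biogenesis and RNA polymerase I, 42 fell and none rose (median log2 fold change -1.42), while 72 of 76 cytosolic ribosomal protein genes rose and none fell (median 1.31). UTP20, a component of the small-subunit processome, stood at 237 and 208 CPM before and 27.7 and 24.1 CPM after confluence (log2 fold change -3.101, SE 0.27, edgeR adjusted p = 0.000129). POLR1A, the largest subunit of RNA polymerase I, stood at 233 and 217 CPM before and 55.6 and 59.5 CPM after confluence (log2 fold change -1.97, SE 0.18, edgeR adjusted p = 0.000135). POLR1G, another subunit, had a log2 fold change of -3.45. Ribosomal protein genes were high in both postconfluent libraries, and their summed share was 36171 and 39294 CPM before and 84742 and 99373 CPM after confluence. RPL31 stood at 525 and 639 CPM before and 2099.7 and 2219 CPM after confluence (log2 fold change 1.89, SE 0.20, edgeR adjusted p = 0.000219). RPL39 and RPL29 had log2 fold changes of 1.59 and 1.62. None of the 76 genes was at least 2-fold apart between the postconfluent libraries. Ribosomal protein genes have many processed copies, so single counts may be split. Without postconfluent replicate 1, 1 gene of ribosome biogenesis rose.

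Brush border enzymes mostly rose. Of 17 digestive hydrolase genes tested 14 rose and 2 fell, with a median log2 fold change of 2.85. ALPI, intestinal alkaline phosphatase and the usual marker of enterocyte maturation, stood at 6.13 and 7.94 CPM before and 60.2 and 41.6 CPM after confluence (log2 fold change 2.85, SE 0.30, edgeR adjusted p = 0.000219). ANPEP, aminopeptidase N, stood at 0.766 and 0.954 CPM before and 50.3 and 20.6 CPM after confluence (log2 fold change 5.35, SE 0.53, edgeR adjusted p = 0.000189), and MEP1A, a meprin subunit, at 0.315 and 0.763 CPM before and 16.7 and 18.4 CPM after confluence (log2 fold change 4.98, SE 0.44, edgeR adjusted p = 0.000129). ALPI and ANPEP were higher in postconfluent replicate 1 and MEP1A was alike in both. The 2 genes that fell were ASAH2 and ENPEP, aminopeptidase A, which stood at 4.24 and 3.74 CPM before and 1.63 and 0.561 CPM after confluence (log2 fold change -1.83, SE 0.44, edgeR adjusted p = 0.00934) and had an adjusted p of 0.0512 without subconfluent replicate 1. The other 6 hydrolase genes did not pass the filter, the highest with 71 counts in a library. The 14 rises became 9 without subconfluent replicate 1 or postconfluent replicate 1 or with the CPM filter. The 2 falls became 1 without subconfluent replicate 2, postconfluent replicate 2 or either Z2flag subconfluent library, in the Z1flag libraries alone with or without the replicate block, with upper-quartile scaling or with the replicate block and 0 without subconfluent replicate 1 or with the CPM filter.

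The microvillus list changed less evenly, with 11 of 28 genes higher and 3 lower. CDHR2, a protocadherin of the tip links between microvilli, stood at 0.1802 and 0.305 CPM before and 22.2 and 8.06 CPM after confluence (log2 fold change 5.91, SE 0.61, edgeR adjusted p = 0.000219). EPS8L3 and BAIAP2L2, adaptors of the microvillar actin bundle, had log2 fold changes of 2.27 and 2.36. These 3 genes were higher in both postconfluent libraries, with CDHR2 higher in replicate 1. MYO1D, a class I myosin, fell, at 795 and 717 CPM before and 285 and 320.1 CPM after confluence (log2 fold change -1.32, SE 0.18, edgeR adjusted p = 0.00066), as did PLS3 and COBL.

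Lipid absorption genes rose without exception among the calls, 23 of 32 tested higher and none lower (median log2 fold change 1.57). Another 6 genes of the list did not pass the filter, the highest with 9 counts in a library. Among them, FABP2 and CD36 had at most 2 and 5 counts in a library and APOC2 stood at 0. APOA4, an apolipoprotein of chylomicrons, stood at 3.24 and 6.26 CPM before and 259.6 and 209.5 CPM after confluence (log2 fold change 5.62, SE 0.41, edgeR adjusted p = 6.82e-05). CREB3L3, the factor that drives APOA4 in gut and liver, stood at 0.721 and 1.18 CPM before and 15.4 and 23.6 CPM after confluence (log2 fold change 4.33, SE 0.45, edgeR adjusted p = 0.000216). CIDEC, a lipid droplet protein, stood at 6.58 and 6.41 CPM before and 42.8 and 37.1 CPM after confluence (log2 fold change 2.62, SE 0.24, edgeR adjusted p = 0.000131). Both postconfluent libraries were high for each. Of 12 tested genes of bile acid handling 6 rose and none fell. ABCC3, an exporter of bile acid conjugates, stood at 17.5 and 24.7 CPM before and 248 and 163 CPM after confluence (log2 fold change 3.28, SE 0.30, edgeR adjusted p = 0.000131), and SLCO2B1, an uptake carrier, had a log2 fold change of 2.06. Another 8 genes of the bile acid list did not pass the filter, the highest with 61 counts in a library.

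Transporters were mixed: of 43 nutrient and ion transporter genes 20 rose and 8 fell. SLC16A3, the lactate exporter MCT4, stood at 1.35 and 1.76 CPM before and 23.03 and 33.3 CPM after confluence (log2 fold change 4.17, SE 0.42, edgeR adjusted p = 0.000211). SLC6A8, the creatine transporter, which overlaps PNCK on the opposite strand, stood at 5.18 and 4.92 CPM before and 45.3 and 80.5 CPM after confluence (log2 fold change 3.64, SE 0.30, edgeR adjusted p = 9.68e-05). SLC7A5, a carrier of large neutral amino acids that is high in growing cells, fell, at 328 and 247 CPM before and 27.2 and 50.9 CPM after confluence (log2 fold change -2.88, SE 0.34, edgeR adjusted p = 0.000353). For all 3 the states did not overlap. The 20 rises became 12 without subconfluent replicate 1. The 8 falls became 5 without either subconfluent library and 15 without postconfluent replicate 2.

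Drug and steroid metabolism genes mostly rose, 26 of 45 tested higher and 2 lower (median log2 fold change 1.97), and 17 of the 45 were at least 2-fold higher in postconfluent replicate 1. Another 13 genes of the list did not pass the filter, the highest with 23 counts in a library. Among them, CYP3A4, CYP3A7 and ADH1A stood at 0 in every Z1flag library. AKR1C3 and AKR1C2, aldo-keto reductases of steroids whose near-identical sequences make single counts uncertain, stood high in both libraries. AKR1C3 was at 4.96 and 5.53 CPM before and 149 and 56.6 CPM after confluence (log2 fold change 4.29, SE 0.43, edgeR adjusted p = 0.000196) and AKR1C2 at 2.03 and 2.44 CPM before and 51.5 and 20.7 CPM after confluence (log2 fold change 4.01, SE 0.43, edgeR adjusted p = 0.000237). NR1I3, the nuclear receptor CAR, stood at 0.1802 and 0.572 CPM before and 16.4 and 8.73 CPM after confluence (log2 fold change 5.01, SE 0.56, edgeR adjusted p = 0.000267). Replicate 1 was the higher library for all 3. The genes that fell were ABCG2, a drug efflux pump, and the acetyltransferase NAT1 (log2 fold change -1.16; edgeR adjusted p = 0.0138, and 0.116 without subconfluent replicate 2). The 2 falls became 1 without postconfluent replicate 1 or either Z2flag subconfluent library, with upper-quartile scaling, with the CPM filter or in a fit of the Z1flag libraries alone, 0 without subconfluent replicate 2 and 4 without postconfluent replicate 2.

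Of 38 intestinal and endodermal transcription factor genes 19 rose and 3 fell. CDX2, the intestinal homeobox factor, stood at 33.97 and 48.9 CPM before and 83.3 and 99.0001 CPM after confluence (log2 fold change 1.14, SE 0.29, edgeR adjusted p = 0.0111). ELF3, an epithelial ETS factor, stood at 18.2 and 14.9 CPM before and 82.4 and 168 CPM after confluence (log2 fold change 2.92, SE 0.36, edgeR adjusted p = 0.000392). CREB3L3, named above, was also among those that rose. The 3 that fell were HNF4A, GATA6 and TCF4. TCF4, a basic helix-loop-helix factor distinct from TCF7L2, fell most by its p-value, at 126 and 125 CPM before and 23.6 and 20.9 CPM after confluence (log2 fold change -2.49, SE 0.19, edgeR adjusted p = 7.08e-05). Both states were tight for TCF4, with replicates less than 2-fold apart. The 19 rises became 8 without subconfluent replicate 1. The 3 falls became 6 with no filter.

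Genes for proteins that the liver secretes into plasma rose almost throughout. Of 40 tested, 36 rose and none fell, with a median log2 fold change of 2.97. SERPINA1, alpha-1-antitrypsin, stood at 98.3 and 205 CPM before and 2303 and 2257 CPM after confluence (log2 fold change 3.91, SE 0.42, edgeR adjusted p = 0.000232). F2, prothrombin, stood at 27.9 and 53.5 CPM before and 277 and 342 CPM after confluence (log2 fold change 2.92, SE 0.33, edgeR adjusted p = 0.000275), and SERPINC1, antithrombin, at 0.451 and 0.687 CPM before and 37.7 and 17.96 CPM after confluence (log2 fold change 5.59, SE 0.52, edgeR adjusted p = 0.00014). SERPINA1 and F2 were alike in the postconfluent libraries, and SERPINC1 was higher in replicate 1. Over the list, 13 of 40 genes were at least 2-fold higher in postconfluent replicate 1 and none lower, with medians of 3.34 and 2.73 in replicates 1 and 2. The subconfluent libraries also lay apart, with list medians of -0.53 and 0.53 from their mean in replicates 1 and 2.

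Among the markers of colonocytes and goblet cells that passed the filter, most rose. Some passed only through postconfluent libraries, AGR3 below among them, and for these the filter fixed the direction. Of the genes tested, 1 colonocyte marker and 2 goblet genes had no count in one of the states. Of 12 tested colonocyte markers 8 rose and none fell (median log2 fold change 3.50, and 3.47 with the genes at 0 set to their bound). CEACAM1, an adhesion molecule of the colonocyte surface, stood at 0.946 and 0.534 CPM before and 18.6 and 10.4 CPM after confluence (log2 fold change 4.304, SE 0.58, edgeR adjusted p = 0.000586). HHLA2, an immune ligand of gut epithelium, stood at 0.586 and 0.8397 CPM before and 45.2 and 9.08 CPM after confluence (log2 fold change 5.23, SE 0.72, edgeR adjusted p = 0.000607), and CA12, a carbonic anhydrase, had a log2 fold change of 2.96. Another 9 markers did not pass the filter, and CA1, AQP8, MS4A12 and CEACAM7 had at most 3 counts in a library. The 8 rises became 5 without subconfluent replicate 2 or postconfluent replicate 1 or with the CPM filter. Of 18 tested goblet and mucin genes 13 rose and 1 fell. Another 10 genes of this list did not pass the filter, the highest with 14 counts in a library. Among these 10, MUC2, SPDEF and CLCA1 had at most 2, 5 and 1 counts in a library. TFF1, a trefoil peptide, stood at 0.225 and 1.34 CPM before and 27.5 and 31.8 CPM after confluence (log2 fold change 5.196, SE 0.55, edgeR adjusted p = 0.00023). MUC13, a membrane mucin, stood at 0.946 and 0.992 CPM before and 77.6 and 18.8 CPM after confluence (log2 fold change 5.63, SE 0.71, edgeR adjusted p = 0.000413). AGR3, a disulfide isomerase relative of secretory cells, stood at 0 and 0.114 CPM before and 14.8 and 3.27 CPM after confluence, 159-fold (95% interval 54.2 to 775) higher. MUC13, AGR3 and HHLA2 were at least 2-fold higher in replicate 1, while TFF1 was alike in both. The 1 gene that fell was REP15 (log2 fold change -1.91). The 13 rises became 7 with the CPM filter. The 1 fall became 2 with no filter or in the Z1flag libraries alone with the replicate block and 0 with the CPM filter.

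Other cell types that a culture could hold were checked by their markers. Of 35 enteroendocrine, Paneth and tuft markers 14 passed the filter, 5 rose and 1 fell, and the defining genes CHGA, NEUROG3, NEUROD1, GCG, SST, REG3A and DCLK1 stood at 0 in all 4 libraries. SCGN, a calcium sensor of endocrine cells, stood at 0.811 and 1.98 CPM before and 12.7 and 8.22 CPM after confluence (log2 fold change 2.89, SE 0.42, edgeR adjusted p = 0.000835). SCG5 and GFI1B had log2 fold changes of 1.71 and 1.24; their edgeR adjusted p was 0.121 without subconfluent replicate 2 and 0.0543 without postconfluent replicate 1 for SCG5 and 0.131 without subconfluent replicate 1 and 0.0553 without subconfluent replicate 2 for GFI1B. The 5 rises became 2 with the CPM filter and 3 without either subconfluent library or postconfluent replicate 1. The 1 fall became 2 with RLE scaling and 0 without subconfluent replicate 2, either postconfluent library or Z2flag subconfluent replicate 1, in the Z1flag libraries alone with or without the replicate block or with the CPM filter. The summed level of the list was 52.7 and 70.9 CPM before and 83.1 and 66.6 CPM after confluence.

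Of 11 fibroblast markers tested 3 were higher and 3 lower, 27.3% higher and 27.3% lower beside 21.3% and 19.1% of all genes, with COL1A2, POSTN, ZEB2 and TWIST1 at 0 and VIM at 7 counts or fewer in each library. COL1A1, a collagen chain, stood at 11.3 and 10.6 CPM before and 28.1 and 39.3 CPM after confluence (log2 fold change 1.62, SE 0.23, edgeR adjusted p = 0.000678), and PDGFRA, a growth factor receptor, at 61.5 and 103 CPM before and 4.27 and 11.4 CPM after confluence (log2 fold change -3.402, SE 0.45, edgeR adjusted p = 0.000515). COL5A1 had a log2 fold change of 1.45. The summed level of the tested markers was 7142 and 6078 CPM before and 8805 and 11260.4 CPM after confluence, nearly all of it from FN1, the matrix protein fibronectin, at 6938 and 5822 CPM before and 8688 and 11153 CPM after confluence (log2 fold change 0.64, SE 0.25, edgeR adjusted p = 0.0622). Without FN1 the sum was 204 and 256 CPM before and 117 and 108 CPM after confluence. Of 19 leukocyte and endothelial markers 6 passed the filter and 5 rose, CD3E, ITGAM, ITGAX, PECAM1 and VWF. PTPRC, the general leukocyte marker, had at most 1 count in a library, and MS4A1, KDR, CLDN5 and HBB stood at 0. PECAM1 stood at 4.51 and 4.77 CPM before and 21.6 and 13.2 CPM after confluence and ITGAM at 0.856 and 0.496 CPM before and 3.101 and 1.74 CPM after confluence. The edgeR adjusted p of PECAM1 was 0.0579 without subconfluent replicate 1, and that of ITGAM 0.0796 without subconfluent replicate 2. The summed level of the list was 10.7 and 18.2 CPM before and 34.0 and 29.1 CPM after confluence. The 5 rises became 1 without either subconfluent library or with the CPM filter and 3 without postconfluent replicate 1.

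**Figure D3:**
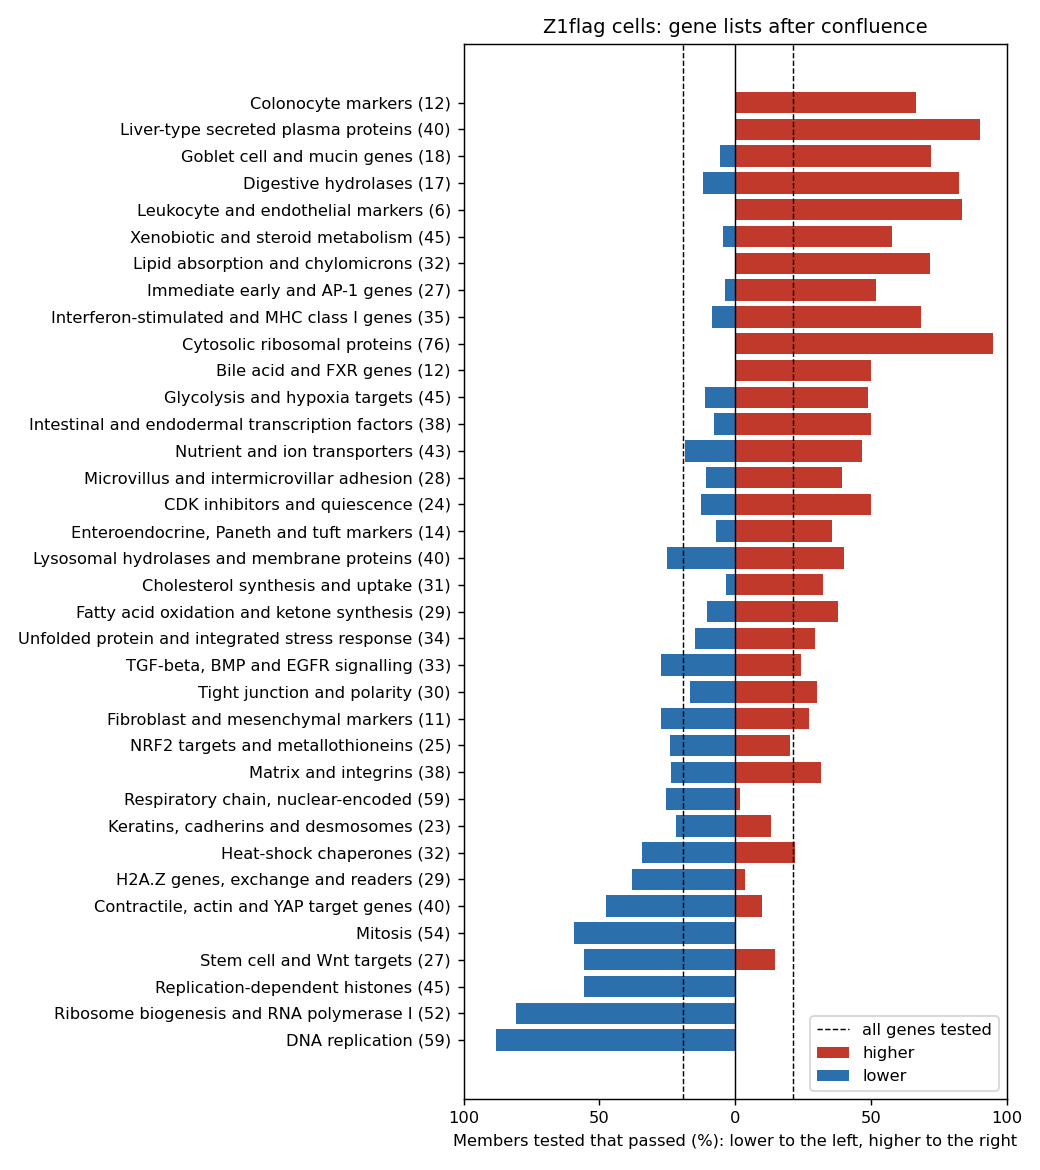
Share of the tested members of each list that were higher (red, to the right) or lower (blue, to the left) after confluence in Z1flag cells, with the number tested in brackets and lists ordered by median log2 fold change. The dashed lines mark all genes tested, 21.3% higher and 19.1% lower; ribosomal proteins (72 of 76 higher) and DNA replication (52 of 59 lower) are the extremes.

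Of 30 tight junction and polarity genes 9 rose and 5 fell, 30% higher and 16.7% lower, near the shares of all genes tested (21.3% and 19.1%). CLDN4, a sealing claudin, stood at 77.4 and 66.8 CPM before and 264 and 282 CPM after confluence (log2 fold change 1.92, SE 0.26, edgeR adjusted p = 0.0006), and CLDN3 at 0.406 and 1.11 CPM before and 6.39 and 7.09 CPM after confluence (log2 fold change 3.12, SE 0.43, edgeR adjusted p = 0.000624). TJP3, a scaffold, had a log2 fold change of 1.84. CLDN2, the cation-pore claudin of leaky and crypt epithelium, fell, at 13.02 and 10.9 CPM before and 3.33 and 2.81 CPM after confluence (log2 fold change -1.96, SE 0.27, edgeR adjusted p = 0.000676). The states of these genes did not overlap. The 9 rises became 5 without subconfluent replicate 1. The 5 falls became 3 without subconfluent replicate 2 or with the CPM filter.

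The main keratins of simple epithelium fell. KRT18, a keratin of simple epithelia, stood at 4551 and 4092 CPM before and 505 and 1256 CPM after confluence (log2 fold change -2.295, SE 0.44, edgeR adjusted p = 0.00303), and its partner KRT8, which it overlaps on the opposite strand, at 7122 and 6910.1 CPM before and 1138 and 2675 CPM after confluence (log2 fold change -1.88, SE 0.41, edgeR adjusted p = 0.00534). Postconfluent replicate 1 was the lowest library for both. Over the keratin, cadherin and desmosome list 5 of 23 genes fell and 3 rose, 13% higher and 21.7% lower beside 21.3% and 19.1% of all genes tested, and with upper-quartile scaling 5 fell and 5 rose. PKP2 and DSC2, desmosome components, had log2 fold changes of -1.48 and -1.31. CDH1, E-cadherin, stood at 713 and 664 CPM before and 1157 and 1163 CPM after confluence (log2 fold change 0.75, SE 0.20, edgeR adjusted p = 0.0125); its adjusted p was 0.0773 without subconfluent replicate 1 and 0.0967 without subconfluent replicate 2. The 3 rises became 5 with upper-quartile scaling, 0 without subconfluent replicate 1 and 1 without subconfluent replicate 2.

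Contractile, actin and YAP target genes fell more often than they rose, 19 of 40 lower and 4 higher (median log2 fold change -0.74). MYL9, the regulatory light chain of smooth muscle and non-muscle myosin, stood at 209 and 161 CPM before and 44.5 and 51.1 CPM after confluence (log2 fold change -1.95, SE 0.26, edgeR adjusted p = 0.0005), and MYL7 is given above. TPM2, a tropomyosin, rose, at 4.24 and 4.31 CPM before and 35.2 and 24.8 CPM after confluence (log2 fold change 2.81, SE 0.26, edgeR adjusted p = 0.000135). The list median was -1.08 in postconfluent replicate 1 and -0.43 in replicate 2. The 19 falls became 11 without subconfluent replicate 1. Of 38 matrix and integrin genes 12 rose and 9 fell, 31.6% higher and 23.7% lower beside 21.3% and 19.1% of all genes tested. ITGA3, the laminin receptor subunit, stood at 6.76 and 8.05 CPM before and 58.96 and 52.6 CPM after confluence (log2 fold change 2.91, SE 0.21, edgeR adjusted p = 6.82e-05). LAMB2 and COL7A1, components of basement membrane and its anchors, had log2 fold changes of 2.47 and 3.23, while COL4A6 had one of -1.63. All 4 matrix genes had states that did not overlap.

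In the TGF-beta, BMP and EGFR list 8 of 33 genes rose and 9 fell, 24.2% higher and 27.3% lower, near the shares of all genes tested (21.3% and 19.1%). Among ligands, EGF stood at 1.22 and 0.8397 CPM before and 34.6 and 6.38 CPM after confluence (log2 fold change 4.33, SE 0.70, edgeR adjusted p = 0.00133) and TGFB2 at 14.9 and 14.4 CPM before and 1.17 and 2.55 CPM after confluence (log2 fold change -2.997, SE 0.51, edgeR adjusted p = 0.00159). EGF was at least 2-fold higher in postconfluent replicate 1, and TGFB2 at least 2-fold lower. The receptor gene ERBB3 stood at 56.7 and 76.8 CPM before and 438 and 269.9 CPM after confluence (log2 fold change 2.41, SE 0.36, edgeR adjusted p = 0.000916). It overlaps an unnamed gene on the same strand. The 8 rises became 3 without subconfluent replicate 1 and 4 without subconfluent replicate 2. The 9 falls became 5 in a fit of the Z1flag libraries alone and 4 without subconfluent replicate 1.

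Genes of glucose use and hypoxia rose more often than they fell. Of 45 glycolysis and hypoxia target genes 22 rose and 5 fell (median log2 fold change 0.87). NDRG1, a gene of hypoxic and differentiating cells, stood at 2.34 and 3.17 CPM before and 245 and 251 CPM after confluence (log2 fold change 6.48, SE 0.37, edgeR adjusted p = 2.70e-05). TXNIP, an inhibitor of thioredoxin and of glucose uptake, stood at 36.8 and 51.6 CPM before and 2539.9 and 1881 CPM after confluence (log2 fold change 5.64, SE 0.28, edgeR adjusted p = 2.70e-05). P4HA1, a collagen prolyl hydroxylase, stood at 98.3 and 103 CPM before and 551 and 622 CPM after confluence (log2 fold change 2.55, SE 0.20, edgeR adjusted p = 7.08e-05). These 3 genes were high in both postconfluent libraries. EGLN3, a HIF prolyl hydroxylase that shares its strand with the overlapping SPTSSA, fell, at 52.1 and 44.01 CPM before and 11.8 and 14.4 CPM after confluence (log2 fold change -1.87, SE 0.22, edgeR adjusted p = 0.000314). The list as a whole was lower in replicate 1: 18 of 45 genes were at least 2-fold below replicate 2 and 4 above, with medians of 0.32 and 1.34 from the subconfluent mean. The 5 falls became 13 without postconfluent replicate 2.

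Sterol genes showed a like gap. Of 31 cholesterol genes 10 rose and 1 fell, with medians of 0.07 in replicate 1 and 0.66 in replicate 2. INSIG1, a sterol sensor, stood at 112 and 115 CPM before and 387 and 761 CPM after confluence (log2 fold change 2.34, SE 0.32, edgeR adjusted p = 0.000569). MSMO1, an enzyme of sterol synthesis, and SREBF2, the master factor of the pathway, had log2 fold changes of 1.49 and 1.25. ACACA, which makes malonyl-CoA, was the 1 gene that fell (log2 fold change -0.97). The 10 rises became 6 without subconfluent replicate 1. The 1 fall became 2 in DESeq2 or in limma voom, 3 with no filter, with the replicate block or in the Z1flag libraries alone with the replicate block and 6 without postconfluent replicate 2.

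In fatty acid oxidation and ketone synthesis 11 of 29 genes rose and 3 fell (37.9% higher and 10.3% lower), and in the nuclear-encoded respiratory chain 1 of 59 rose and 15 fell (1.69% higher and 25.4% lower). Over all genes tested these shares were 21.3% and 19.1%, and the difference between the 2 lists was not tested. CPT1A, which commits fatty acids to oxidation, stood at 5.59 and 6.34 CPM before and 45.1 and 35.98 CPM after confluence (log2 fold change 2.76, SE 0.27, edgeR adjusted p = 0.000179). CRAT had a log2 fold change of 1.997, and ACAT1, a thiolase, one of -1.34. All 3 had states that did not overlap. The 3 falls became 1 without subconfluent replicate 2 and 5 without postconfluent replicate 1. Among respiratory chain genes that fell, NDUFB2 had a log2 fold change of -1.202, NDUFA12 one of -0.99 and ATP5PB one of -0.86. COX7C, the 1 that rose, had a log2 fold change of 0.63 (edgeR adjusted p = 0.0317) and did not pass without subconfluent replicate 1 (0.274) or without either Z2flag subconfluent library (0.0786 and 0.0786). The 1 rise became 2 with upper-quartile scaling, 0 without subconfluent replicate 1 or either Z2flag subconfluent library, in the Z1flag libraries alone with or without the replicate block or with no filter and 4 without postconfluent replicate 1. The 15 falls became 8 with upper-quartile scaling or in a fit of the Z1flag libraries alone, 3 without subconfluent replicate 2 and 23 without postconfluent replicate 2. Mitochondrially encoded genes stood at 0 in every library and were not analysed here.

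Of 40 lysosomal genes 16 rose and 10 fell, 40% higher and 25% lower beside 21.3% and 19.1% of all genes tested. MAN2B1, a mannosidase, had a log2 fold change of 1.66. ARSB, a sulfatase, stood at 58.4 and 61.4 CPM before and 11.8 and 16.1 CPM after confluence (log2 fold change -2.11, SE 0.21, edgeR adjusted p = 0.000199). The 16 rises became 8 without subconfluent replicate 1. The 10 falls became 6 without subconfluent replicate 2 or in a fit of the Z1flag libraries alone.

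The heat-shock chaperone genes differed between the postconfluent libraries. HSPA6 (chr1:161524540-161526910, plus strand, GRCh38), an inducible HSP70 that is silent in unstressed cells, had no count before confluence and stood at 0.908 CPM in postconfluent replicate 1 and 25.3 CPM in replicate 2. It was at least 182-fold higher against the floor of 3 counts (edgeR adjusted p = 0.00459), and with no filter the edgeR adjusted p was 0.192. HSF1, the factor of the heat-shock response, binds repeats of GAA and TTC. The promoters were searched for GAA, TTC and GAA in a row with any 2 bases between neighbours, and for the reverse complement. A match was found in 5 of 30 matched chaperone promoters (16.7%), against 0.487% of 27305 promoters and 0.257% of the 11689 of genes tested. HSPA6 was among the 5. The windows show HSPA6 and 3 of the others, chosen for the match after their values were seen, 5′ to 3′ in the direction of the gene with the match in capitals.
HSPA6: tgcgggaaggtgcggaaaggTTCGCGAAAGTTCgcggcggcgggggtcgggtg
HSPA8: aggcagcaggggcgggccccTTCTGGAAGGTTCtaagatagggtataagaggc
CHORDC1: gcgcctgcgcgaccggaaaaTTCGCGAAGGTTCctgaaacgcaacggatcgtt
DNAJB6: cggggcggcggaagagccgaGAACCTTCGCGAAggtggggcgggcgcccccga
These lie at chr1:161524446-161524498 on the plus strand for HSPA6, chr11:123062159-123062211 on the minus strand for HSPA8, chr11:90223072-90223124 on the minus strand for CHORDC1 and chr7:157336853-157336905 on the plus strand for DNAJB6 (GRCh38.p14). The CHORDC1 promoter holds 3 overlapping matches and that of HSPA8 2 separate ones. HSPA8, the constitutive HSP70, stood at 2976 and 3311 CPM before and 808 and 2876 CPM after confluence (log2 fold change -0.77, SE 0.46, edgeR adjusted p = 0.201). CHORDC1, a co-chaperone of HSP90, stood at 506 and 479 CPM before and 201 and 254 CPM after confluence (log2 fold change -1.12, SE 0.28, edgeR adjusted p = 0.0115), and DNAJB6, a J-domain protein, at 72.5 and 73.8 CPM before and 48.1 and 75.02 CPM after confluence (log2 fold change -0.25, SE 0.24, edgeR adjusted p = 0.426). HSPA8 and DNAJB6 were lowest in postconfluent replicate 1 and close to the subconfluent level in replicate 2, and CHORDC1 was low in both. Of these 4 genes, then, HSPA6 rose, CHORDC1 fell and the other two did not pass the test.

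Over the chaperone list 7 of 32 genes rose and 11 fell, 21.9% higher and 34.4% lower beside 21.3% and 19.1% of all genes tested (median log2 fold change -0.45). Those that rose were HSPA1A, HSPA1B, HSPA1L, HSPA6, HSPB1, DNAJB4 and CRYAB, all of the HSP70, small HSP and DNAJ families. CRYAB, a small heat-shock protein whose gene overlaps HSPB2 on the opposite strand, stood at 0.0901 and 0.0763 CPM before and 0.8698 and 7.86 CPM after confluence (log2 fold change 5.62, SE 1.11, edgeR adjusted p = 0.00352). HSPA1B, whose counts may be split with the near-identical HSPA1A, stood at 47.1 and 52.6 CPM before and 69.9 and 390.3 CPM after confluence (log2 fold change 2.21, SE 0.59, edgeR adjusted p = 0.0142). Both were higher in replicate 2. Among those that fell, CCT5, a subunit of the TRiC chaperonin, stood at 569 and 619 CPM before and 149.7 and 278 CPM after confluence (log2 fold change -1.47, SE 0.28, edgeR adjusted p = 0.00261), and HSPE1, the mitochondrial co-chaperonin, had a log2 fold change of -1.07. Replicate 1 lay above replicate 2 in 1 of the 32 genes and at least 2-fold below it in 13, with medians of -0.76 and -0.08 from the subconfluent mean. In the postconfluent Z2flag libraries the list median was 0.47 and 0.06 from the subconfluent mean of that line. The 7 rises became 2 without subconfluent replicate 1, 3 without subconfluent replicate 2 and 4 without postconfluent replicate 2. The 11 falls became 5 without subconfluent replicate 1, 4 without subconfluent replicate 2, 7 without postconfluent replicate 1 and 18 without postconfluent replicate 2.

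Genes of the unfolded protein and integrated stress responses followed the same split. Of 34 genes 10 rose and 5 fell, 29.4% higher and 14.7% lower beside 21.3% and 19.1% of all genes tested, with medians of -0.13 in replicate 1 and 0.56 in replicate 2, and 12 were at least 2-fold lower in replicate 1 than in replicate 2. HERPUD1, a factor of degradation from the endoplasmic reticulum, stood at 65.9 and 77.7 CPM before and 164 and 304 CPM after confluence (log2 fold change 1.704, SE 0.27, edgeR adjusted p = 0.001303). PSAT1, an enzyme of serine synthesis and an ATF4 target, stood at 85.3 and 73.3 CPM before and 15.01 and 26.6 CPM after confluence (log2 fold change -1.93, SE 0.27, edgeR adjusted p = 0.000646). DDIT4, an inhibitor of mTORC1, stood at 12.9 and 11.1 CPM before and 50.9 and 291 CPM after confluence (log2 fold change 3.83, SE 0.63, edgeR adjusted p = 0.00147), and its adjusted p was 0.0711 with no filter and 0.129 in the Z1flag libraries alone with the replicate block. DDIT4 was above the subconfluent level in both postconfluent libraries and more than 2-fold higher in replicate 2. The 10 rises became 3 without subconfluent replicate 1, 5 without subconfluent replicate 2 and 17 without postconfluent replicate 1. The 5 falls became 3 without subconfluent replicate 2 or either Z2flag subconfluent library, with upper-quartile scaling or with the CPM filter, 2 without subconfluent replicate 1 or postconfluent replicate 1 and 12 without postconfluent replicate 2.

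Among NRF2 targets and metallothioneins 5 of 25 tested genes rose and 6 fell, 20% higher and 24% lower, near the shares of all genes tested (21.3% and 19.1%). Another 7 genes of the list, all metallothioneins, did not pass the filter and had at most 8 counts in a library. These were MT1A, MT1E, MT1G, MT1H, MT1M, MT1X and MT2A. KEAP1, the adaptor that marks NRF2 for degradation, stood at 91.7 and 110.03 CPM before and 31.96 and 45.8 CPM after confluence (log2 fold change -1.38, SE 0.22, edgeR adjusted p = 0.00123). FTH1, the ferritin heavy chain, had a log2 fold change of 1.32. The 5 rises became 3 without either subconfluent library. The 6 falls became 3 without subconfluent replicate 2 and 10 without postconfluent replicate 2. Of 27 immediate early and AP-1 genes 14 rose and 1 fell (median log2 fold change 1.55). JUNB, an AP-1 subunit, stood at 4.24 and 4.62 CPM before and 29.6 and 39.5 CPM after confluence (log2 fold change 2.96, SE 0.30, edgeR adjusted p = 0.000211), and FOSB, another, at 0.676 and 0.305 CPM before and 10.5 and 5.46 CPM after confluence (log2 fold change 4.04, SE 0.52, edgeR adjusted p = 0.00048). KLF10 had a log2 fold change of 2.63. DUSP2, a MAP kinase phosphatase, was the 1 that fell (log2 fold change -1.57). Of the 27 genes 11 were at least 2-fold lower in replicate 1 and 2 higher. The 14 rises became 9 without subconfluent replicate 2. The 1 fall became 2 without either Z2flag postconfluent library or with no filter and 3 without postconfluent replicate 2.

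Interferon-stimulated and MHC class I genes mostly rose, 24 of 35 tested higher and 3 lower (median log2 fold change 1.34). HLA-E, a class I molecule, stood at 27.8 and 35.2 CPM before and 140.2 and 181 CPM after confluence (log2 fold change 2.35, SE 0.25, edgeR adjusted p = 0.000232). HLA-B, which overlaps HLA-C and shares sequence with other class I genes, stood at 6.08 and 6.79 CPM before and 67.5 and 53.5 CPM after confluence (log2 fold change 3.23, SE 0.30, edgeR adjusted p = 0.000138). IFIT2, an interferon-induced inhibitor of translation, stood at 0.3605 and 0.343 CPM before and 12.8 and 4.797 CPM after confluence (log2 fold change 4.63, SE 0.56, edgeR adjusted p = 0.000381). OAS3 and DTX3L were among the 3 that fell. The 24 rises became 12 without subconfluent replicate 1. The 3 falls became 1 without subconfluent replicate 1.

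**Figure D4:**
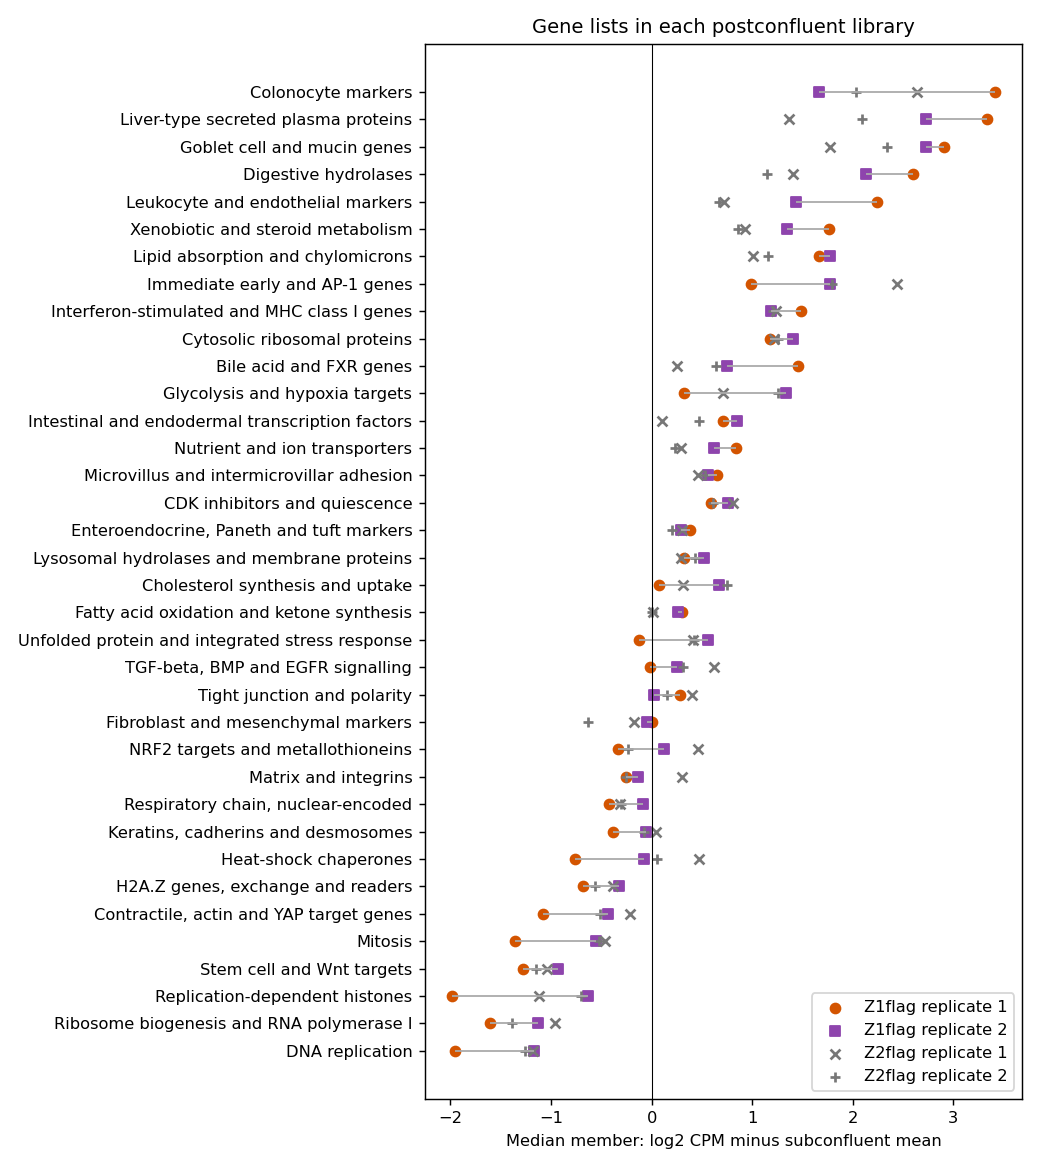
Median of the tested members of each list in each postconfluent library, as log2 CPM minus the subconfluent mean of its own line. Orange circles (Z1flag replicate 1) lie left of purple squares (replicate 2) for histones (-1.98 and -0.63), glycolysis and hypoxia targets (0.32 and 1.34) and chaperones (-0.76 and -0.08), and right of them for plasma proteins (3.34 and 2.73); grey marks are the Z2flag libraries.

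Gene by gene, the 2 postconfluent Z1flag libraries were at least 2-fold apart for 3247 of 18240 genes (17.8%), with 2090 higher in replicate 1 (11.5%) and 1157 lower (6.34%). The same count was 1180 (6.47%) between the subconfluent Z1flag libraries and 10.5% and 1.83% between the postconfluent and the subconfluent Z2flag ones. These are differences between single libraries and carry no test. Genes higher in replicate 1 had a median level of 1.41 CPM, against 12.9 CPM over all genes, and 36.9% of them were long non-coding, against 16.6% of all genes and 13.1% of those lower in replicate 1. For 49 genes (0.269%) the postconfluent libraries lay at least 2-fold from the subconfluent mean on opposite sides. Of the 3890 genes called higher, both postconfluent libraries were at least 2-fold above the subconfluent mean for 67.7%, and of the 3490 called lower both were at least 2-fold below for 43.2%. Replicate 1 was the farther from the subconfluent mean for 58.9% of the calls. Without postconfluent replicate 1, 3924 genes were higher and 3529 lower and 80.1% of the calls were kept; without replicate 2 these values were 4697, 4165 and 88.5%.

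The protein-coding genes highest in postconfluent replicate 1 relative to replicate 2 were picked by that difference, so the difference itself is a description. TTN, the giant sarcomere protein titin, stood at 557 and 228 CPM before and 1474 and 149 CPM after confluence (log2 fold change 1.05, SE 0.79, edgeR adjusted p = 0.313), and in the postconfluent Z2flag libraries at 112 and 225 CPM. GUCY2C, the guanylin receptor of enterocytes, stood at 0.2704 and 1.41 CPM before and 90.8 and 10.4 CPM after confluence (log2 fold change 5.86, SE 1.03, edgeR adjusted p = 0.001903), with an adjusted p of 0.0806 with no filter and 0.309 in the Z1flag libraries alone with the replicate block. TM4SF4, a tetraspanin-like protein of liver and gut, stood at 1.67 and 1.37 CPM before and 84.2 and 10.7 CPM after confluence (log2 fold change 4.97, SE 0.89, edgeR adjusted p = 0.002098). GUCY2C and TM4SF4 were higher in both libraries, while the states of TTN overlapped. ANXA13, the intestinal annexin, stood at 0.315 and 0.611 CPM before and 27.9 and 3.88 CPM after confluence (log2 fold change 5.07, SE 0.96, edgeR adjusted p = 0.00278). A2M, a protease inhibitor of plasma, stood at 0.135 and 0.153 CPM before and 15.4 and 1.48 CPM after confluence (log2 fold change 5.83, SE 1.04, edgeR adjusted p = 0.00206), and MASP1, a complement protease, at 0 before and 16.5 and 2.19 CPM after confluence, at least 167-fold higher (edgeR adjusted p = 0.00104). TM4SF20, TNFSF10 and PRLR rose as well, by log2 fold changes of 5.48, 5.78 and 2.88. PRLR had an adjusted p of 0.0589 in limma voom, 0.0782 without subconfluent replicate 1, 0.0892 without subconfluent replicate 2 and 0.183 without postconfluent replicate 1, and with no filter TM4SF20 had one of 0.111 and TM4SF4 one of 0.0831. KCNJ16, a potassium channel gene, stood at 13.9 and 12.2 CPM before and 42.5 and 3.83 CPM after confluence (log2 fold change 0.84, edgeR adjusted p = 0.391). In KCNJ16 and TTN 1 postconfluent library lay above and the other below both subconfluent ones. The log2 fold change of KCNJ16 was -1.73 without postconfluent replicate 1 and 1.70 without replicate 2, and that of TTN was 1.89 without replicate 2. Since these genes were picked for the gap between the same libraries, these values are a description.

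The genes lowest in replicate 1 relative to replicate 2 were picked in the same way. Besides HSPA6, HSPA1B and DDIT4, described above, they included ATF3, a factor induced by stress, at 8.52 and 7.75 CPM before and 8.698 and 53.02 CPM after confluence (log2 fold change 1.92, SE 0.64, edgeR adjusted p = 0.0355). ARRDC3, an arrestin-domain protein, stood at 35.9 and 45.5 CPM before and 55.4 and 330.4 CPM after confluence (log2 fold change 2.24, SE 0.62, edgeR adjusted p = 0.0166). EREG, the growth factor epiregulin, stood at 50.6 and 34.96 CPM before and 14.1 and 87.1 CPM after confluence (log2 fold change 0.24, SE 0.68, edgeR adjusted p = 0.802), and PLK2, a polo-like kinase, at 27.6 and 25.2 CPM before and 8.396 and 50.2 CPM after confluence (log2 fold change 0.14, SE 0.66, edgeR adjusted p = 0.878). In ATF3 and ARRDC3 replicate 1 stayed near the subconfluent level, and in EREG and PLK2 the 2 libraries lay on opposite sides of it. In the postconfluent Z2flag libraries ATF3 stood at 103 and 57.7 CPM and ARRDC3 at 329.7 and 334 CPM, closer to Z1flag replicate 2 than to replicate 1. BMP7 stood at 37.2 and 60.5 CPM before and 3.67 and 21.8 CPM after confluence (log2 fold change -1.95, SE 0.60, edgeR adjusted p = 0.0255), DHRS2 at 4.55 and 7.56 CPM before and 3.21 and 22.4 CPM after confluence and CSRP2 at 3.65 and 6.98 CPM before and 2.57 and 15.97 CPM after confluence. The calls for ATF3, ARRDC3, HSPA1B and BMP7 were lost in 13, 6, 5 and 7 of the alternatives. Without postconfluent replicate 2 the edgeR adjusted p was 0.845 for ATF3, 0.208 for ARRDC3 and 0.102 for HSPA1B, and PLK2 had a log2 fold change of -1.66. Without subconfluent replicate 1 or 2 it was 0.141 and 0.155 for ATF3, 0.116 and 0.0755 for ARRDC3, 0.0981 and 0.0767 for HSPA1B, and 0.0507 and 0.140 for BMP7. Leaving out 1 Z2flag library ended the calls for ATF3 (0.0519 to 0.0888) and, for the subconfluent ones, BMP7 (0.0725 and 0.0730). Without postconfluent replicate 1, DHRS2 and CSRP2 had log2 fold changes of 1.92 and 1.62. All these genes were picked for a low replicate 1, so their values without a postconfluent library are a description.

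**Figure D5:**
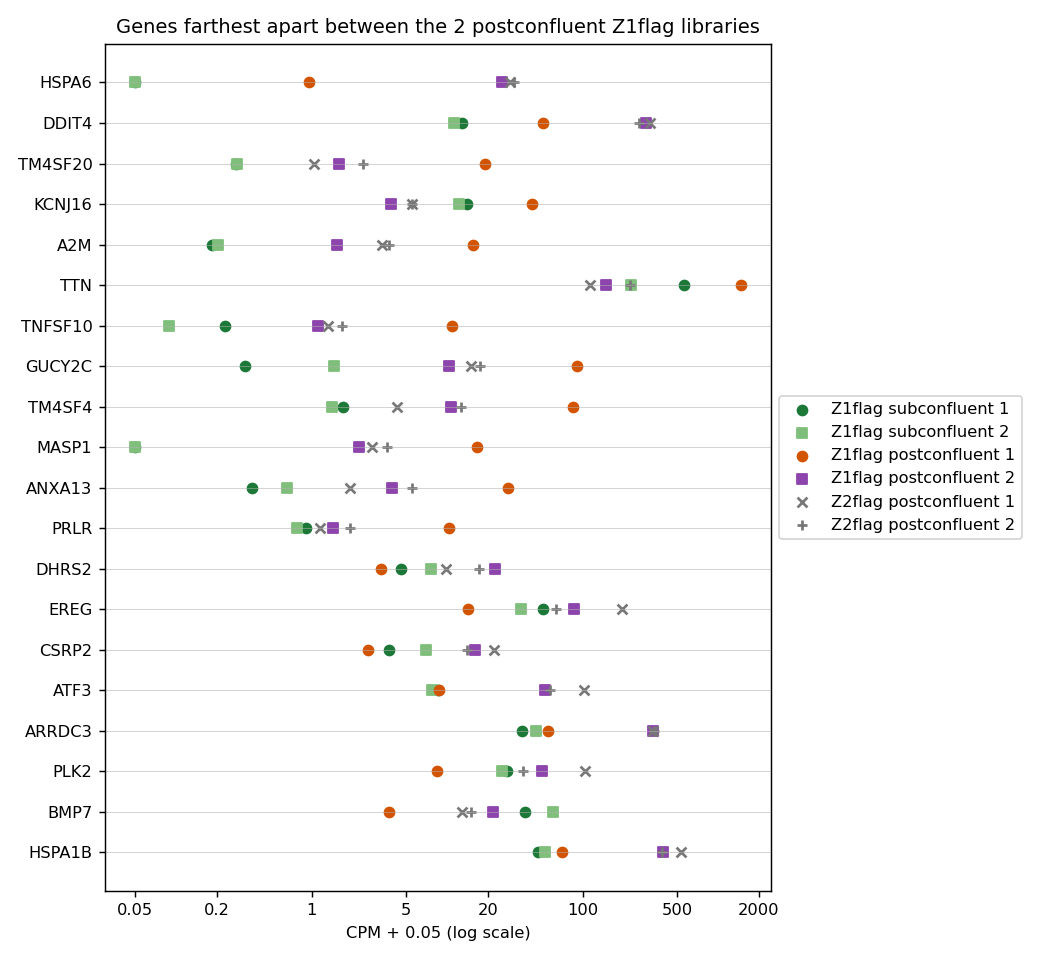
CPM (plus 0.05, log scale) of the protein-coding genes farthest apart between the 2 postconfluent Z1flag libraries, in the 4 Z1flag libraries and the 2 postconfluent Z2flag libraries. TTN stood at 1474 CPM in Z1flag postconfluent replicate 1 and 149 CPM in replicate 2, and HSPA6 at 0.908 and 25.3 CPM; the Z2flag marks lie nearer to replicate 2 for both.

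No gene's change was shown to differ between the 2 lines. The test of the difference between the confluence change in Z1flag and that in Z2flag cells called 0 of 18240 genes in edgeR and 0 in DESeq2 and limma voom, with 902 genes at an unadjusted p under 0.05 (4.95%). In Z2flag cells 6864 genes were called (37.6%). Genes called in both lines in the same direction made up 70.2% of the Z1flag calls and 75.5% of the Z2flag calls, and 1 gene was called in opposite directions (0.0136%). Of the 5 genes with the smallest interaction p, MYLK4, a myosin kinase gene, stood at 7.39 and 7.33 CPM before and 2.496 and 1.43 CPM after confluence in Z1flag and at 8.79 and 6.22 CPM before and 0.386 and 0.481 CPM after confluence in Z2flag cells (difference of the changes 2.21 on the log2 scale, SE 0.55, edgeR adjusted p = 0.799). LINGO3, a leucine-rich repeat membrane protein, stood at 0.0451 and 0.0382 CPM before and 3.21 and 2.45 CPM after confluence in Z1flag and at 0.1901 and 0.113 CPM before and 0.551 and 1.08 CPM after confluence in Z2flag cells. NUGGC stood at 2.03 and 4.12 CPM before and 3.78 and 2.45 CPM after confluence and at 6.61 and 5.18 CPM before and 0.606 and 1.504 CPM after confluence (difference of the changes 2.51 on the log2 scale, SE 0.68, edgeR adjusted p = 0.799). In MYLK4 the postconfluent Z2flag libraries were the lowest, and in NUGGC the Z1flag states overlapped. The small nucleolar RNA gene SNORD116-24, with 7 counts before and 25 after confluence, and APOBR, with 3 and 18, were the other 2. With no filter on low counts 41 genes passed this test, and without postconfluent Z1flag replicate 2, 190 did.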

How the data were processed

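The deposited values are raw counts per Ensembl gene ID, and the libraries were, per the labels, made by paired-end sequencing of ribosomal RNA-depleted RNA with the strand kept. Per the submitters' processing notes the tools were HTSeq, SAMtools and STAR 2.5.2b, on hg38. The sources used here give neither the annotation nor the strand setting of the counting. Rows of unassigned reads were dropped. Positions on GRCh38 came from GENCODE v29, which lists 58039 of the 58302 IDs, and 57532 had a symbol. The 37 mitochondrial IDs stood at 0.

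Groups came from the labels. One edgeR 4.0.16 fit (R 4.3.3, TMM scaling, robust quasi-likelihood F test) of all 8 libraries with 4 group means and 4 residual degrees of freedom tested postconfluent minus subconfluent Z1flag cells, and the difference of that change from the one in Z2flag cells. The filterByExpr filter (minimum count 10, total 15) left 18240 genes, and p-values were adjusted by Benjamini-Hochberg with a threshold of 0.05. A prior count of 2 was added for log2 CPM. Each SE is the log2 fold change divided by the square root of F. Intervals of count ratios are exact 95% binomial ones, and these and the floor of 3 counts cover counting error only.

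Named were H2AZ1 and H2AZ2; the 10 highest and 10 lowest fold changes among called genes with a symbol, a mean of at least 5 CPM and no overlap; in each of 36 lists up to 3 called members with the smallest adjusted p and a mean of at least 1 CPM, plus the first of the rarer direction; the 10 protein-coding genes farthest apart each way between the postconfluent Z1flag libraries with at least 10 CPM in one; and the 5 smallest interaction p-values. Members and lists were chosen with earlier results of these data known. The alternatives tried were DESeq2 1.42.0, limma voom (limma 3.58.1), upper-quartile or RLE scaling, no filter, a filter of 5 CPM in 2 libraries, a 2-fold minimum, replicate blocks, the Z1flag libraries alone and leaving out each library. On simulated counts the Z1flag test recovered 11.5% of genes changed 2-fold and 75.5% of those changed 4-fold, with 8 false calls among 17783 genes tested. Only 190 of these genes were changed in the simulation, whereas 7380 of 18240 were called in the data. The adjustment of p-values depends on that share, so these rates cannot be carried over to the data. Promoters came from RefSeq (GRCh38.p14). Some of the genes picked by these rules are not reported here.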

Additional observations from a re-analysis of the deposited data

How the results depend on the processing

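The 3890 genes higher after confluence were 1801 to 4697 when 1 library was left out, and the 3490 lower genes were 1956 to 4165; the lowest counts came without subconfluent replicate 1 and the highest without postconfluent replicate 2. A minimum fold change of 2 left 2098 lower genes, and a fit of the Z1flag libraries alone 2177, with fewer libraries to estimate the spread. Between the lines 0 genes differed, against 41 with no filter and 0 to 190 when 1 library was left out, 190 of them without postconfluent Z1flag replicate 2; the cause was not tested. The share of the main calls kept was 50.1% without subconfluent replicate 1 and 93.7% without postconfluent Z2flag replicate 2. With the replicate block within each line 3654 genes were higher and 3448 lower, and with the block in the Z1flag libraries alone 3414 and 2848. The deviations of the 2 libraries numbered 1 correlated at r = 0.0978 over 18240 genes, and the labels do not say that the number marks a shared batch. The block moved 8 of 144 list counts by over 1.5 times, and all alternatives moved 136 of 1224. Of 164 named genes 29 changed their call in at least 1 alternative, 86 of 2771 values in all. Of these, 2 were reversals: KCNJ16, at 0.84, ranged from -1.73 without postconfluent replicate 1 to 1.70 without postconfluent replicate 2, and PLK2, at 0.14, from -1.66 without postconfluent replicate 2 to 0.96 without postconfluent replicate 1. A gene with 3 counts over the 2 subconfluent libraries stands at 0.0619 CPM, which limits the folds of genes near 0.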
